A study of Gallus gallus with 6 samples.

Results

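The integrins, laminins and cadherins of the chicken feather follicle were followed across 6 RNA libraries. Records were taken by the wording of their transcript description, which had to name an integrin, a laminin or a cadherin. Of 10964 transcript records listed in at least 1 library, 58 matched. Left out were 8 of them: 4 catenins, the integrin-binding proteins ITGB1BP3, ITGB3BP and ITGB4BP, and the laminin alpha 3 chain LAMA3. The record of E-cadherin (CDH1), which the tables describe as a liver cell adhesion protein, was not a member either. Of the remaining 50 records, 27 had at least 20 counts in some library and are the members described here. They comprise 2 integrin alpha chains, 6 integrin beta chains, 6 laminin chains, 4 cadherins and 7 protocadherins. The other 2 matched by wording only: EGFLAM is a matrix protein with laminin G domains and ITFG1 a protein with an integrin-type repeat, and neither is an integrin or laminin chain.

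Integrins are receptors made of an alpha and a beta chain that tie cells to the extracellular matrix and pass signals in both directions across the membrane. Laminins are trimers of an alpha, a beta and a gamma chain that form the sheet of a basement membrane, where epithelial, endothelial, muscle and nerve cells bind them through integrins. Cadherins hold neighbouring cells together and are linked to actin by catenins, and protocadherins are a related family best known from neurons. In skin appendages a basement membrane separates the epithelium from the dermal papilla and pulp, and each tissue is known for its own cadherins.

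Of the 3 growth-phase libraries, 1 came from the dermal papilla, the mesenchymal cluster at the follicle base, 1 from the pulp, the mesenchyme inside the growing feather, and 1 from the feather epithelium. Another library came from the dermal papilla of resting follicles. The remaining 2 came from regenerating feather follicles sampled 2 and 4 days after a wound. For strain, age, sex and the number of birds, nothing is given in the sources used here. Each group had 1 library, so no spread between birds could be estimated and no test was made. Intervals are 95% intervals for counting error alone, and sequenced reads without molecular identifiers are not independent molecules. The regenerating libraries are labelled as follicle and the resting library as papilla, so a difference between them in time and a difference in dissected tissue cannot be told apart.

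The library totals were 3269376 to 3410045 in the papilla and regeneration tables, against 5683214 in the pulp and 6064791 in the epithelium. The pulp and epithelium tables also had another text layout than the other 4. Of the 27 members, 6 (22.2%) were lower in both of these libraries than in each of the other 4, as were 947 (13.1%) of the 7205 records with at least 20 counts in some library. Among these 6 were ITGB6, LAMA1, LAMB2, CDH19 and PCDH11X. PCDHAC2 alone, 1 of the 27 members, was higher in both the pulp and the epithelium than in each of the other 4, as were 888 of the 7205 records. It reached 20 counts in the pulp alone. Every comparison of the growth papilla with the pulp or the epithelium crosses table layouts. In these comparisons tissue and table layout cannot be told apart for any record, member or not. The pulp and the epithelium share a layout. Levels below are CPM, the counts taken relative to the library total, scaled by the trimmed mean of M values (scaled CPM). They are not divided by transcript length, so they compare 1 record between libraries and never 2 records. A record counts as higher or lower in a pair of libraries at a ratio of at least 2-fold on the scale log2(scaled CPM + 1), and it is counted where it has at least 20 counts in either library. A record absent from a table had 0 or 1 counts, and a fold against it is a lower bound set at 3 counts in that library.

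The tissues carried the markers of their labels. The summed level of 8 mesenchyme markers was 5087.6 scaled CPM in the growth papilla and 3974.8 in the pulp, against 97.8 in the epithelium. EPCAM, an epithelial adhesion protein, stood at 15.9 scaled CPM in the growth papilla and 4.47 in the pulp, against 533.9 in the epithelium. Keratin 14 (KRT14) did not separate them so, with 616.1 scaled CPM in the growth papilla, 85.1 in the pulp and 478.5 in the epithelium. In bulk RNA, fewer cells of a type and less RNA per cell cannot be told apart.

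Among the growing tissues, most counted members were higher in the papilla and the pulp than in the epithelium. E-cadherin and the desmosomal cadherins DSG2, DSG4 and DSC1, which are not members, were lower in the papilla and the pulp than in the epithelium. DSG2 had 9 counts in the growth papilla, 2 in the pulp and 198 in the epithelium, and CDH1 had 83, 36 and 877. The member counts below therefore do not stand for the cadherin family as a whole. In the growth papilla against the epithelium, 17 of 21 members were at least 2-fold higher and 1, PCDH10, was lower. Over all records 25.0% were higher and 22.7% lower in this pair, 47.6% in all. The median log2 ratio of the members was 2.99, and that of all records was -0.05. In the pulp against the epithelium, 18 of 24 members were higher, where 26.7% of all records were, and 3 were lower, where 20.4% were, 47.1% of records in all differing by 2-fold. Members had a median log2 ratio of 2.50 in this pair, and all records 0.08. The 3 lower members were the integrin beta 8-like record LOC420605, PCDH10 and ITFG1. Among the 18 higher members, the protocadherins LOC425750 and PCDHAC2 reached 20 counts in the pulp alone. LOC420605 reached 20 counts in the epithelium alone. These records are members only through the library where they were higher, so their directions in this pair follow from the threshold.

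In the growth papilla against the pulp, 5 of 23 members were higher, against 14.7% of all records, and 4 were lower, against 19.1%. Over all records 33.8% differed by 2-fold in this pair, so the members differed about as often as other records. The higher members were ITGA1, ITGB5, LAMA1, LAMB2 and PCDH11X, and the lower ones ITGB2, CDH8, PCDHA8 and PCDHAC2. The median log2 ratio was -0.33 over the members and -0.09 over all records. The highest scaled level of a member fell in the pulp for 15 of the 27, in the growth papilla for 5, in the epithelium for 3, in the resting papilla for 2, and at day 2 and at day 4 for 1 each. LOC425750 and PCDHAC2 reached 20 counts in the pulp alone, LOC420605 in the epithelium alone and CDH19 at day 2 alone. They are members only through the library where they were highest, so their places in this tally follow from the threshold. So does the place of PCDHAC2 among the 4 members lower in the growth papilla than in the pulp. A threshold in counts is also more easily reached in the deeper pulp and epithelium libraries. Of the 7205 records with at least 20 counts in some library, 26.4% were highest in the pulp, 15.7% in the growth papilla and 28.4% in the epithelium, where the members' shares were 55.6%, 18.5% and 11.1%.

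**Figure D1:**
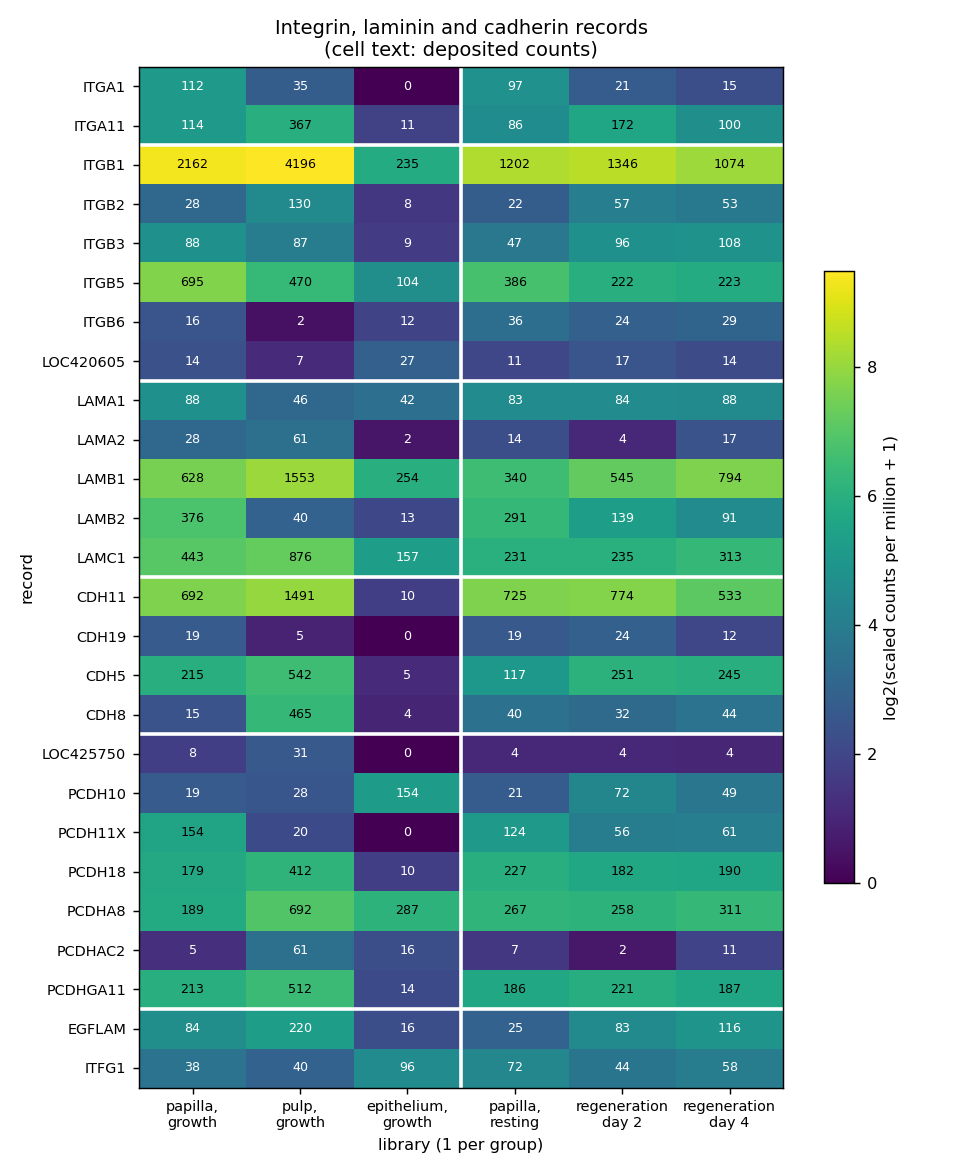
Heat map of 26 of the 27 members (rows, grouped as integrin alpha, integrin beta, laminin, cadherin, protocadherin and the 2 that matched by wording) in the 6 libraries (columns). Colour is log2(scaled CPM + 1), the number in each cell is the deposited count, and 0 marks a record the table does not list; the epithelium column is the darkest for most rows, with 235 counts of ITGB1 and 10 of CDH11, while PCDH10 is brightest there with 154.

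Integrin beta 1 (ITGB1), the partner of most alpha chains, was the integrin record with the most counts in every library. It stood at 636.1 scaled CPM in the growth papilla, 721.7 in the pulp and 56.3 in the epithelium, and at 330.3 in the resting papilla, 366.3 at day 2 and 272.7 at day 4. The epithelium was thus far below every other library. The growth papilla was 11.3-fold (9.86 to 13) above the epithelium and the pulp 12.8-fold (11.2 to 14.7) above it, while the growth papilla and the pulp differed by a ratio of 0.881 (0.836 to 0.929).

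Integrin beta 5 (ITGB5), which pairs with the alpha V chain and binds vitronectin, was highest in the growth papilla. Its level was 204.5 scaled CPM in the growth papilla, 80.8 in the pulp and 24.9 in the epithelium, and 106.1 in the resting papilla, 60.4 at day 2 and 56.6 at day 4. The growth papilla was 2.53-fold (2.25 to 2.85) above the pulp. Relative to beta 1, which needs no scaling between libraries, ITGB5 made up 24.3% of the counts of both records in the growth papilla and 10.1% (9.22 to 11) in the pulp. In the resting papilla this share was also 24.3% (22.2 to 26.5), with 14.2% (12.5 to 16.0) at day 2 and 17.2% (15.2 to 19.4) at day 4. The papillae of both phases therefore had nearly the same balance of the 2 chains, and the pulp and the regenerating follicles had less ITGB5 beside ITGB1. The epithelium, with few counts of either, had 30.7% (25.8 to 35.9).

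The 2 alpha chains with enough counts, ITGA1 and ITGA11, both encode collagen receptors that pair with beta 1. ITGA1 had 112 counts (33.0 scaled CPM) in the growth papilla, 35 (6.02) in the pulp and none listed in the epithelium, and 97 (26.7) in the resting papilla, 21 (5.72) at day 2 and 15 (3.81) at day 4. ITGA11, the collagen receptor of fibroblasts, had 33.5 scaled CPM in the growth papilla, 63.1 in the pulp and 2.64 in the epithelium, and 23.6 in the resting papilla, 46.8 at day 2 and 25.4 at day 4. ITGA1 was thus high in the papillae alone, and ITGA11 was spread over all libraries but the epithelium. ITGA1 was at least 45.8-fold higher in the growth papilla than in the epithelium and 5.47-fold (3.72 to 8.25) higher than in the pulp. In the same pairs ITGA11 was 12.7-fold (6.85 to 26.2) higher and 1.88-fold (1.52 to 2.34) lower in the growth papilla. ITGA1 made up 49.6% (42.9 to 56.3) of the counts of both records in the growth papilla and 8.71% (6.14 to 11.9) in the pulp. It made up 53.0% (45.5 to 60.4) in the resting papilla, 10.9% (6.86 to 16.2) at day 2 and 13% (7.49 to 20.6) at day 4.

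Smooth muscle genes, like ITGA1 and ITGB5, were higher in the growth papilla than in the pulp, and higher in the resting papilla than in the regenerating follicles. The summed level of the 5 smooth muscle markers found, of 6 looked for, was 18695.5 scaled CPM in the growth papilla, 580.5 in the pulp and 163.7 in the epithelium, and 5908.3 in the resting papilla, 1717.2 at day 2 and 1913.2 at day 4. Desmin (DES) was the marker not listed in the epithelium. The part of smooth muscle cells in these integrin levels was not tested.

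Integrin beta 3 (ITGB3), a receptor chain of platelets, vessels and bone-resorbing cells, was low in the epithelium, and higher in the regenerating follicles than in the resting papilla. It had 25.9 scaled CPM in the growth papilla, 15.0 in the pulp and 2.16 in the epithelium, and 12.9 in the resting papilla, 26.1 at day 2 and 27.4 at day 4. Its share of the counts of ITGB3 and ITGB1 was 3.76% (2.78 to 4.97) in the resting papilla, 6.66% (5.43 to 8.07) at day 2 and 9.14% (7.56 to 10.9) at day 4. Of the thrombocyte markers, GP9 was listed in the pulp alone, with 4 counts, and the other found, THBS1, is not restricted to these cells. THBS1 had 61.5 scaled CPM in the growth papilla, 17.5 in the pulp and 15.1 in the epithelium. It had 116.8 in the resting papilla, 93.6 at day 2 and 41.6 at day 4, and so, unlike ITGB3, was lower on both days. The 2 erythroid markers found, both alpha-type globins, summed to 105.6 scaled CPM in the growth papilla, 417.4 in the pulp and 32.8 in the epithelium, and to 14.0 in the resting papilla, 159.0 at day 2 and 155.9 at day 4. The globins were thus lowest in the resting papilla and highest in the pulp, and the part of blood in the ITGB3, ITGB2 and CDH5 levels was not tested. Integrin beta 2 (ITGB2), the chain of leukocyte integrins, had 8.24 scaled CPM in the growth papilla, 22.4 in the pulp and 1.92 in the epithelium, and 6.05 in the resting papilla, 15.5 at day 2 and 13.5 at day 4. The 5 leukocyte markers found, of 7 looked for, summed to 253.9 scaled CPM in the growth papilla, 1198.8 in the pulp and 20.1 in the epithelium, and to 245.7 in the resting papilla, 396.0 at day 2 and 386.7 at day 4, the order in which ITGB2 ranked the libraries. CD74 made up most of these sums, with 307.8 scaled CPM at day 2 and 272.4 at day 4. C1QB (69.4 and 87.8), LCP1 (12.5 and 19.3) and CD3E (4.90 and 6.60) were higher at day 4 than at day 2, unlike ITGB2. The common leukocyte antigen PTPRC had at most 5 counts in any library and was not listed in the growth papilla or the epithelium, and the part of leukocytes in the ITGB2 level was not tested.

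The remaining integrin records were sparse. The epithelial chain ITGB6, an activator of latent TGF-beta, had 16 counts in the growth papilla, 2 in the pulp and 12 in the epithelium, and 36 in the resting papilla, 24 at day 2 and 29 at day 4. LOC420605, described as similar to integrin beta 8, had 14, 7 and 27 counts in the growth papilla, pulp and epithelium, and 11, 17 and 14 in the resting papilla, at day 2 and at day 4. It was among the 3 members with their highest level in the epithelium, the only library where it passed the count threshold.

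**Figure D2:**
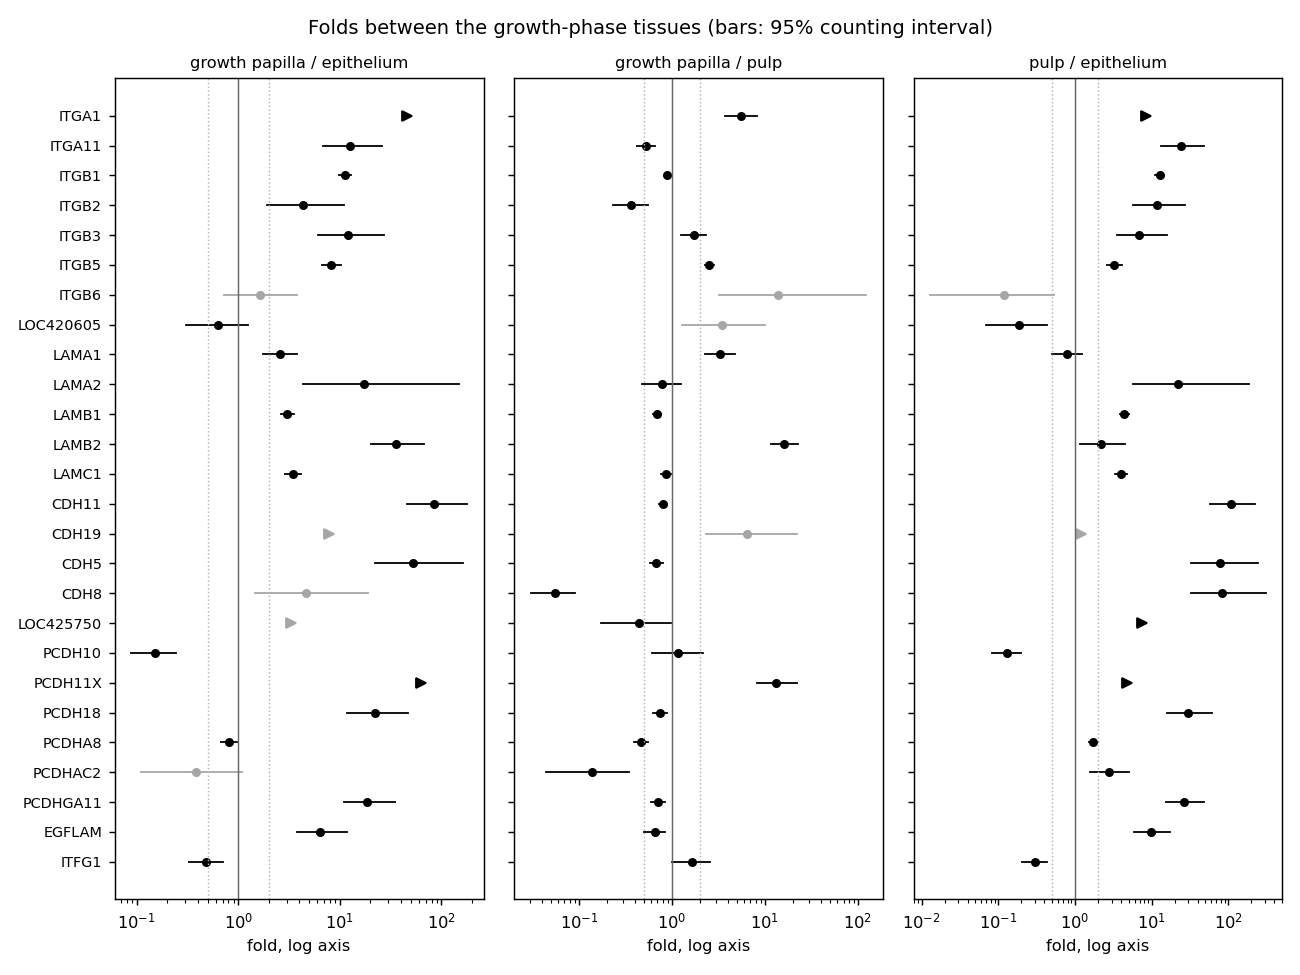
Folds of 26 of the 27 members between the growth-phase tissues on log axes, growth papilla over epithelium (left), growth papilla over pulp (middle) and pulp over epithelium (right). Points are ratios of scaled counts with 95% counting intervals, triangles are lower bounds against a library that does not list the record, grey marks records under 20 counts in both libraries, and dotted lines mark 2-fold; ITGB1 lies at 11.3 on the left and 0.881 in the middle, and LAMB2 at 35.5 and 16.1.

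LAMB1 and LAMC1, the widely used laminin beta and gamma chains, ranked the growth-phase tissues alike. LAMB1 had 184.8 scaled CPM in the growth papilla, 267.1 in the pulp and 60.9 in the epithelium, and 93.4 in the resting papilla, 148.3 at day 2 and 201.6 at day 4. LAMC1 had 130.3 scaled CPM in the growth papilla, 150.7 in the pulp and 37.6 in the epithelium, and 63.5 in the resting papilla, 64.0 at day 2 and 79.5 at day 4. Both were highest in the pulp and lowest in the epithelium, where they nonetheless kept 254 and 157 counts. LAMC1 was 3.46-fold (2.88 to 4.18) higher in the growth papilla than in the epithelium, and the ratio of the growth papilla to the pulp was 0.865 (0.770 to 0.971). LAMB1 made up 58.6% (55.6 to 61.6) of the counts of the 2 records in the growth papilla, 63.9% (62.0 to 65.8) in the pulp and 61.8% (56.9 to 66.5) in the epithelium. The share was 59.5% (55.4 to 63.6) in the resting papilla, 69.9% (66.5 to 73.1) at day 2 and 71.7% (69.0 to 74.4) at day 4.

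LAMB2, the beta chain known from the basement membranes of vessel walls, the kidney filter and the neuromuscular junction, was highest in both papillae. For LAMB2, as for every record, tissue and table layout cannot be told apart between the growth papilla and the pulp or epithelium. It had 376 counts (110.6 scaled CPM) in the growth papilla, 40 (6.88) in the pulp and 13 (3.12) in the epithelium, and 291 (80.0) in the resting papilla, 139 (37.8) at day 2 and 91 (23.1) at day 4. Both papilla libraries were above the regenerating follicles, and these above the pulp and the epithelium. LAMB2 was 35.5-fold (20.5 to 67.3) higher in the growth papilla than in the epithelium and 16.1-fold (11.6 to 22.9) higher than in the pulp. Of the counts of LAMB2 and LAMB1, LAMB2 held 37.5% (34.4 to 40.5) in the growth papilla, 2.51% (1.80 to 3.40) in the pulp and 4.87% (2.62 to 8.18) in the epithelium. It held 46.1% (42.2 to 50.1) in the resting papilla, 20.3% (17.4 to 23.5) at day 2 and 10.3% (8.36 to 12.5) at day 4. The difference in beta chain shares between the resting papilla and the regenerating follicles lies within the 4 tables of 1 layout. The smooth muscle markers given above were likewise highest in the growth papilla, then in the resting papilla, and their part in the LAMB2 level was not tested.

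Of the laminin alpha chains, LAMA1 and LAMA2 were members. LAMA1, the alpha chain of early embryonic basement membranes, had 25.9 scaled CPM in the growth papilla, 7.91 in the pulp and 10.1 in the epithelium, and 22.8 in the resting papilla, 22.9 at day 2 and 22.3 at day 4. It was nearly level over the 4 libraries of 1 layout and lower in both others. LAMA2, the chain of muscle and nerve basement membranes, had 28 counts in the growth papilla, 61 in the pulp and 2 in the epithelium, and 14 in the resting papilla, 4 at day 2 and 17 at day 4. LAMA3 and LAMB3 encode chains of the epidermal laminin that anchors hemidesmosomes. LAMB3 was under the threshold, with 6 counts in the resting papilla and none listed elsewhere. LAMA3, which is not a member, had 58.3 scaled CPM in the growth papilla, 37.3 in the pulp and 24.9 in the epithelium, and 202.2 in the resting papilla, 72.1 at day 2 and 99.3 at day 4. LAMA3 was thus highest in the resting papilla.

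EGFLAM, known as pikachurin and a ligand of dystroglycan, is a matrix protein and not a laminin chain. It had 24.7 scaled CPM in the growth papilla, 37.8 in the pulp and 3.84 in the epithelium, and 6.87 in the resting papilla, 22.6 at day 2 and 29.4 at day 4. The resting papilla and the epithelium were low and all other libraries were high. ITFG1 had 38 counts in the growth papilla, 40 in the pulp and 96 in the epithelium, and 72 in the resting papilla, 44 at day 2 and 58 at day 4.

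**Figure D3:**
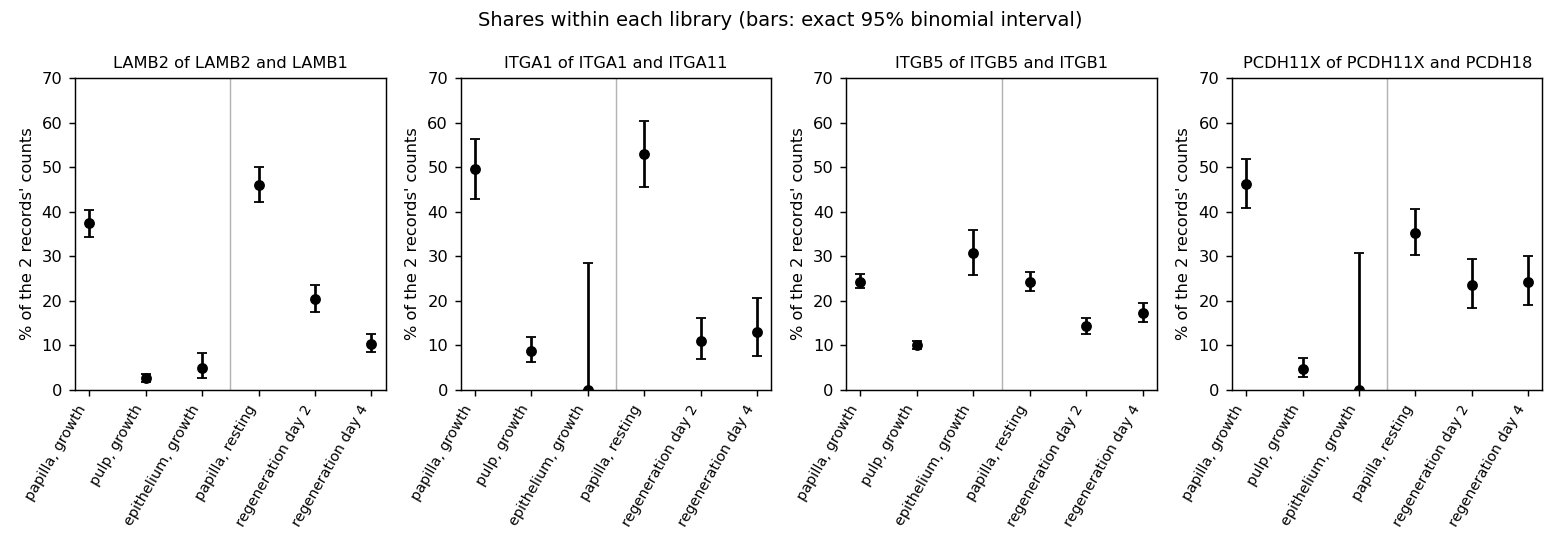
Share of the first record among the counts of 2 records within each library, in percent, with exact 95% binomial intervals, for LAMB2 beside LAMB1, ITGA1 beside ITGA11, ITGB5 beside ITGB1 and PCDH11X beside PCDH18. LAMB2 holds 37.5% in the growth papilla and 46.1% in the resting papilla, and 10.3% at day 4; the pulp is low in all panels.

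Cadherin 11 (CDH11), the cadherin of mesenchymal cells, had 203.6 scaled CPM in the growth papilla, 256.5 in the pulp and 2.40 in the epithelium, and 199.2 in the resting papilla, 210.7 at day 2 and 135.3 at day 4. E-cadherin (CDH1), the cadherin of epithelia and given here for comparison, had 24.4 scaled CPM in the growth papilla, 6.19 in the pulp and 210.3 in the epithelium, and 68.4 in the resting papilla, 38.1 at day 2 and 58.1 at day 4. The 2 records were opposite between the epithelium and the mesenchymal tissues. CDH11 was 84.9-fold (45.9 to 177.9) higher and CDH1 8.61-fold (6.87 to 10.9) lower in the growth papilla than in the epithelium. In the pulp against the epithelium CDH11 was 107.0-fold (58.0 to 223.5) higher and CDH1 34.0-fold (24.3 to 48.8) lower. CDH1 held 10.7% (8.62 to 13.1) of the counts of both records in the growth papilla, 2.36% (1.66 to 3.25) in the pulp and 98.9% (97.9 to 99.5) in the epithelium. Its share was 25.6% (22.9 to 28.4) in the resting papilla, 15.3% (13 to 17.8) at day 2 and 30.1% (26.8 to 33.4) at day 4. The 7 epithelium markers found, of 10 looked for, summed to 697.9 scaled CPM in the growth papilla, 98.6 in the pulp and 1553.8 in the epithelium, and to 824.3 in the resting papilla, 1346.2 at day 2 and 1001.3 at day 4. KRT14 made up most of these sums in all libraries but the epithelium. Without KRT14 the other 6 summed to 81.8 scaled CPM in the growth papilla, 13.4 in the pulp and 1075.2 in the epithelium, and to 374.8 in the resting papilla, 295.3 at day 2 and 378.3 at day 4. The part of epithelial cells in the CDH1 level of the other libraries was not tested.

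Cadherin 5 (CDH5), the cadherin of endothelial junctions, had 63.3 scaled CPM in the growth papilla, 93.2 in the pulp and 1.20 in the epithelium, and 32.1 in the resting papilla, 68.3 at day 2 and 62.2 at day 4. It was lowest in the epithelium and, of the others, in the resting papilla. The growth papilla was 52.8-fold (22.3 to 164.2) and the pulp 77.8-fold (33.1 to 240.5) above the epithelium. The other 9 endothelium markers summed to 242.2 scaled CPM in the growth papilla, 312.4 in the pulp and 17.0 in the epithelium, and to 213.5 in the resting papilla, 376.7 at day 2 and 322.4 at day 4. PECAM1 and VWF made up most of these sums in every library, so the sums do not stand for the markers as a group. VWF had 45.1 scaled CPM in the resting papilla and 126.8 at day 2. PECAM1, TIE1, EGFL7, ESAM and CLDN5 were also higher at day 2 than in the resting papilla, and KDR, TEK and FLT1 were not. KDR, TEK, TIE1, FLT1, ESAM and CLDN5 were highest in the pulp, VWF at day 2, and PECAM1 and EGFL7 at day 4. KDR, TEK, FLT1, EGFL7 and ESAM were not listed in the epithelium. The amount of vessel in each dissected tissue was not tested as a part of the CDH5 level.

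Cadherin 8 (CDH8), a type II cadherin best known from neurons, was a pulp transcript. It had 15 counts (4.41 scaled CPM) in the growth papilla, 465 (80.0) in the pulp and 4 (0.959) in the epithelium, and 40 (11) in the resting papilla, 32 (8.71) at day 2 and 44 (11.2) at day 4. The pulp stood above every other library, and the growth papilla was 18.1-fold (10.9 to 32.6) lower than the pulp. CDH8 held 2.12% (1.19 to 3.48) of the counts of CDH8 and CDH11 in the growth papilla and 23.8% (21.9 to 25.7) in the pulp. In the epithelium, with only 14 counts of both records, it held 28.6% (8.39 to 58.1), so this share was not particular to the pulp. It held 5.23% (3.76 to 7.05) in the resting papilla, 3.97% (2.73 to 5.56) at day 2 and 7.63% (5.60 to 10.1) at day 4. Cadherin 19 (CDH19), known from glial cells of peripheral nerves, had 19 counts in the growth papilla, 5 in the pulp and none listed in the epithelium, and 19 in the resting papilla, 24 at day 2 and 12 at day 4. SOX10, a factor of glia and pigment cells, had 8 counts in the growth papilla, was not listed in the pulp and had 30 in the epithelium, and had 10 in the resting papilla, 13 at day 2 and 7 at day 4. N-cadherin (CDH2), a cadherin of mesenchyme and nerve, stayed under the threshold, with 7 counts in the growth papilla, 13 in the pulp and 3 in the epithelium, and 8 in the resting papilla, 11 at day 2 and 5 at day 4.

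Of the protocadherins outside the gene cluster, PCDH10 was the epithelial one. It had 19 counts (5.59 scaled CPM) in the growth papilla, 28 (4.82) in the pulp and 154 (36.9) in the epithelium, and 21 (5.77) in the resting papilla, 72 (19.6) at day 2 and 49 (12.4) at day 4. The epithelium was highest and the regenerating follicles came next. PCDH10 was 6.60-fold (4.09 to 11.3) lower in the growth papilla and 7.67-fold (5.10 to 11.9) lower in the pulp than in the epithelium. Melanocyte markers summed to 6.18 scaled CPM in the growth papilla, 21.5 in the pulp and 761.4 in the epithelium, and to 4.95 in the resting papilla, 5.17 at day 2 and 7.11 at day 4. The part of melanocytes in the PCDH10 level was not tested.

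PCDH11X was highest in both papillae, and PCDH18 was low in the epithelium alone. For PCDH11X too, tissue and table layout cannot be told apart between the growth papilla and the pulp or epithelium. PCDH11X had 154 counts (45.3 scaled CPM) in the growth papilla, 20 (3.44) in the pulp and none listed in the epithelium, and 124 (34.1) in the resting papilla, 56 (15.2) at day 2 and 61 (15.5) at day 4. It was at least 63.0-fold higher in the growth papilla than in the epithelium and 13.2-fold (8.24 to 22.2) higher than in the pulp. PCDH18 had 52.7 scaled CPM in the growth papilla, 70.9 in the pulp and 2.40 in the epithelium, and 62.4 in the resting papilla, 49.5 at day 2 and 48.2 at day 4. Of the counts of both, PCDH11X held 46.2% (40.8 to 51.8) in the growth papilla and 4.63% (2.85 to 7.06) in the pulp, and 35.3% (30.3 to 40.6) in the resting papilla, 23.5% (18.3 to 29.4) at day 2 and 24.3% (19.1 to 30.1) at day 4. PCDH11X thus shared with LAMB2 and ITGA1 the order of papillae over regenerating follicles over pulp and epithelium, apart from ITGA1 at day 2 and day 4, where its 5.72 and 3.81 scaled CPM lay below the 6.02 of the pulp.

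The clustered protocadherins PCDHA8, PCDHAC2, PCDHGA11 and LOC425750, the last described as similar to protocadherin beta 15, are uncertain, because members of these clusters share exons or have near-identical copies between which reads can be split. PCDHA8 had 55.6 scaled CPM in the growth papilla, 119.0 in the pulp and 68.8 in the epithelium, and 73.4 in the resting papilla, 70.2 at day 2 and 79.0 at day 4. PCDHGA11 had 62.7 scaled CPM in the growth papilla, 88.1 in the pulp and 3.36 in the epithelium, and 51.1 in the resting papilla, 60.2 at day 2 and 47.5 at day 4. The alpha record was thus present in the epithelium as elsewhere, and the gamma record was low there. PCDHA8 was 2.14-fold (1.82 to 2.53) lower in the growth papilla than in the pulp, and its ratio to the epithelium was 0.808 (0.669 to 0.975), which became 1.17 without a scaling factor. PCDHAC2 had 5, 61 and 16 counts in the growth papilla, pulp and epithelium, and 7, 2 and 11 in the resting papilla, at day 2 and at day 4. LOC425750 had at most 31 counts, in the pulp.

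The growth papilla was set against the resting papilla to compare adhesion transcripts between phases of the feather cycle. Of 23 members, 2 were at least 2-fold higher in the growth papilla, LAMC1 and EGFLAM, and 1 was lower, CDH8. Over all records 9.35% were higher and 7.97% lower, so the members' shares of 8.70% and 4.35% were near or below the background. The median log2 ratio was 0.39 over the members and -0.02 over all records. Several further members lay just under the 2-fold threshold, most of them higher in the growth papilla. ITGB6, with 16 and 36 counts in the growth and resting papilla, lay near it in the other direction (log2 ratio -0.93). ITGB1 was 1.93-fold (1.79 to 2.07) higher in the growth papilla, with 2162 counts there and 1202 in the resting papilla. ITGB5 was 1.93-fold (1.70 to 2.19), LAMB1 1.98-fold (1.73 to 2.26) and CDH5 1.97-fold (1.56 to 2.49) higher. LAMC1 reached 2.05-fold (1.75 to 2.42). The mesenchymal cadherin CDH11, by contrast, was at a ratio of 1.02 (0.920 to 1.14). EGFLAM, with 84 counts in the growth papilla and 25 in the resting papilla, was 3.60-fold (2.28 to 5.87) higher. CDH8, with 15 and 40 counts in the growth and resting papilla, was 2.49-fold (1.35 to 4.85) lower, and CDH1 was 2.80-fold (2.18 to 3.64) lower. LAMA3, which like CDH1 is not a member, was 3.47-fold (2.96 to 4.08) lower. Of 6 epithelium markers counted in this pair, 4 were lower in the growth papilla and 0 higher (median log2 ratio -1.83). Their sum without KRT14 was 81.8 scaled CPM in the growth papilla and 374.8 in the resting papilla, while KRT14 was at 616.1 in the growth papilla and 449.5 in the resting papilla. The part of epithelial cells in the CDH1 difference was not tested. Smooth muscle markers summed to 18695.5 scaled CPM in the growth papilla and 5908.3 in the resting papilla, with 4 of 5 higher and 0 lower. The alpha-type globins summed to 105.6 and 14.0. The part of smooth muscle and blood in the ITGB1, ITGB5, LAMB1, LAMC1 and CDH5 differences was not tested.

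**Figure D4:**
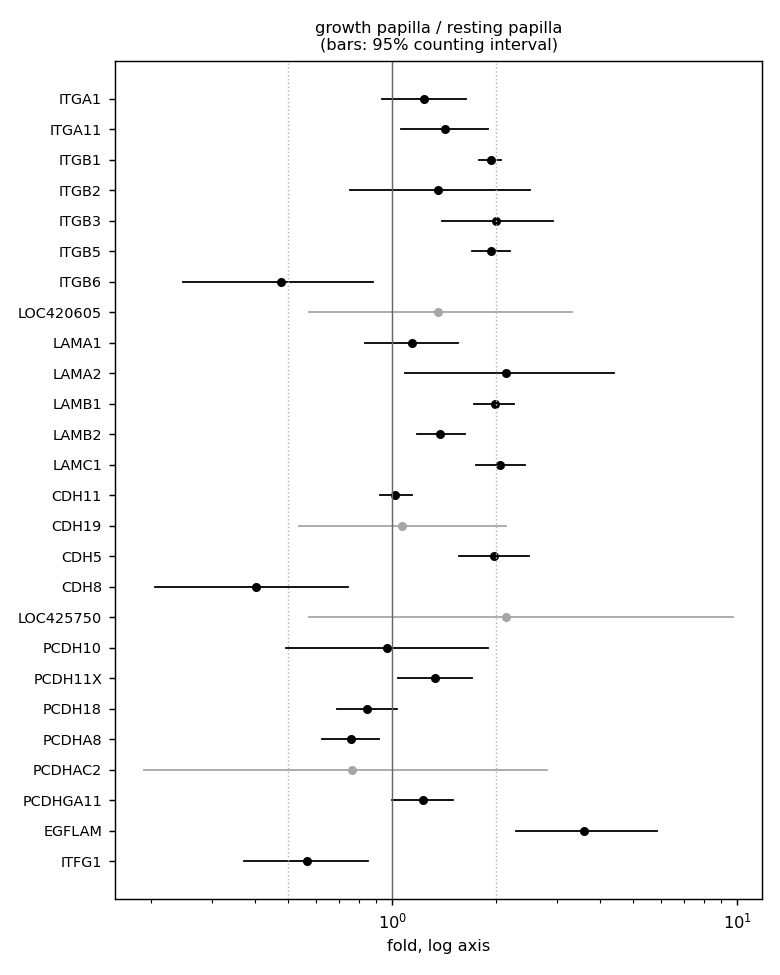
Folds of 26 of the 27 members in the growth papilla over the resting papilla on a log axis, with 95% counting intervals; grey marks records under 20 counts in both libraries and dotted lines mark 2-fold. ITGB1, ITGB5, LAMB1, LAMC1 and CDH5 lie between 1.93 and 2.05, CDH11 at 1.02, EGFLAM at 3.60 and CDH8 at 0.402.

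The regenerating follicles were set against the resting papilla. At day 2, 4 of 23 members were higher, ITGB2, CDH5, PCDH10 and EGFLAM, against 7.03% of all records, and 3 were lower, ITGA1, LAMB2 and PCDH11X, against 6.00%. The median log2 ratio was 0.01 over the members and -0.06 over all records. At day 4, 4 of 22 were higher, ITGB2, ITGB3, LAMB1 and EGFLAM, against 8.23% of all records, and ITGA1, LAMB2 and PCDH11X were again the 3 lower ones, against 6.90%. Members had a median log2 ratio of -0.07 at day 4, and all records -0.03. Both comparisons use the same resting library, so the names they share do not stand for separate evidence. In both the medians stayed near 0 while single members moved in opposite directions.

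LAMB2 was 2.11-fold (1.72 to 2.61) lower at day 2 and 3.46-fold (2.73 to 4.43) lower at day 4 than in the resting papilla, while LAMB1 was 1.59-fold (1.38 to 1.82) and 2.16-fold (1.90 to 2.46) higher. The beta chains thus differed in opposite directions. Among the integrin chains, ITGA1 was 4.66-fold (2.89 to 7.87) lower at day 2 and 7.0-fold (4.04 to 13) lower at day 4, ITGB5 1.76-fold (1.48 to 2.08) and 1.87-fold (1.58 to 2.22) lower. ITGB3 was 2.02-fold (1.41 to 2.93) and 2.12-fold (1.49 to 3.06) higher. ITGB1 stayed within 1.21-fold of the resting papilla on both days. EGFLAM was 3.29-fold (2.08 to 5.37) higher at day 2 and 4.29-fold (2.76 to 6.90) higher at day 4. CDH5 was 2.12-fold (1.70 to 2.67) and 1.93-fold (1.55 to 2.43) higher, and PCDH10 was 3.40-fold (2.06 to 5.82) and 2.16-fold (1.27 to 3.78) higher. Of the endothelium markers, CDH5 included, 2 of 7 counted were higher at day 2, against 7.03% of all records. At day 4 the count was 1 of 8, against 8.23%. CDH11 was at a ratio of 1.06 (0.954 to 1.17) at day 2 and 0.679 (0.606 to 0.761) at day 4. Smooth muscle markers were 1717.2 scaled CPM at day 2 and 1913.2 at day 4, against 5908.3 in the resting papilla. Their part in the lower ITGA1, LAMB2, ITGB5 and PCDH11X levels was not tested.

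**Figure D5:**
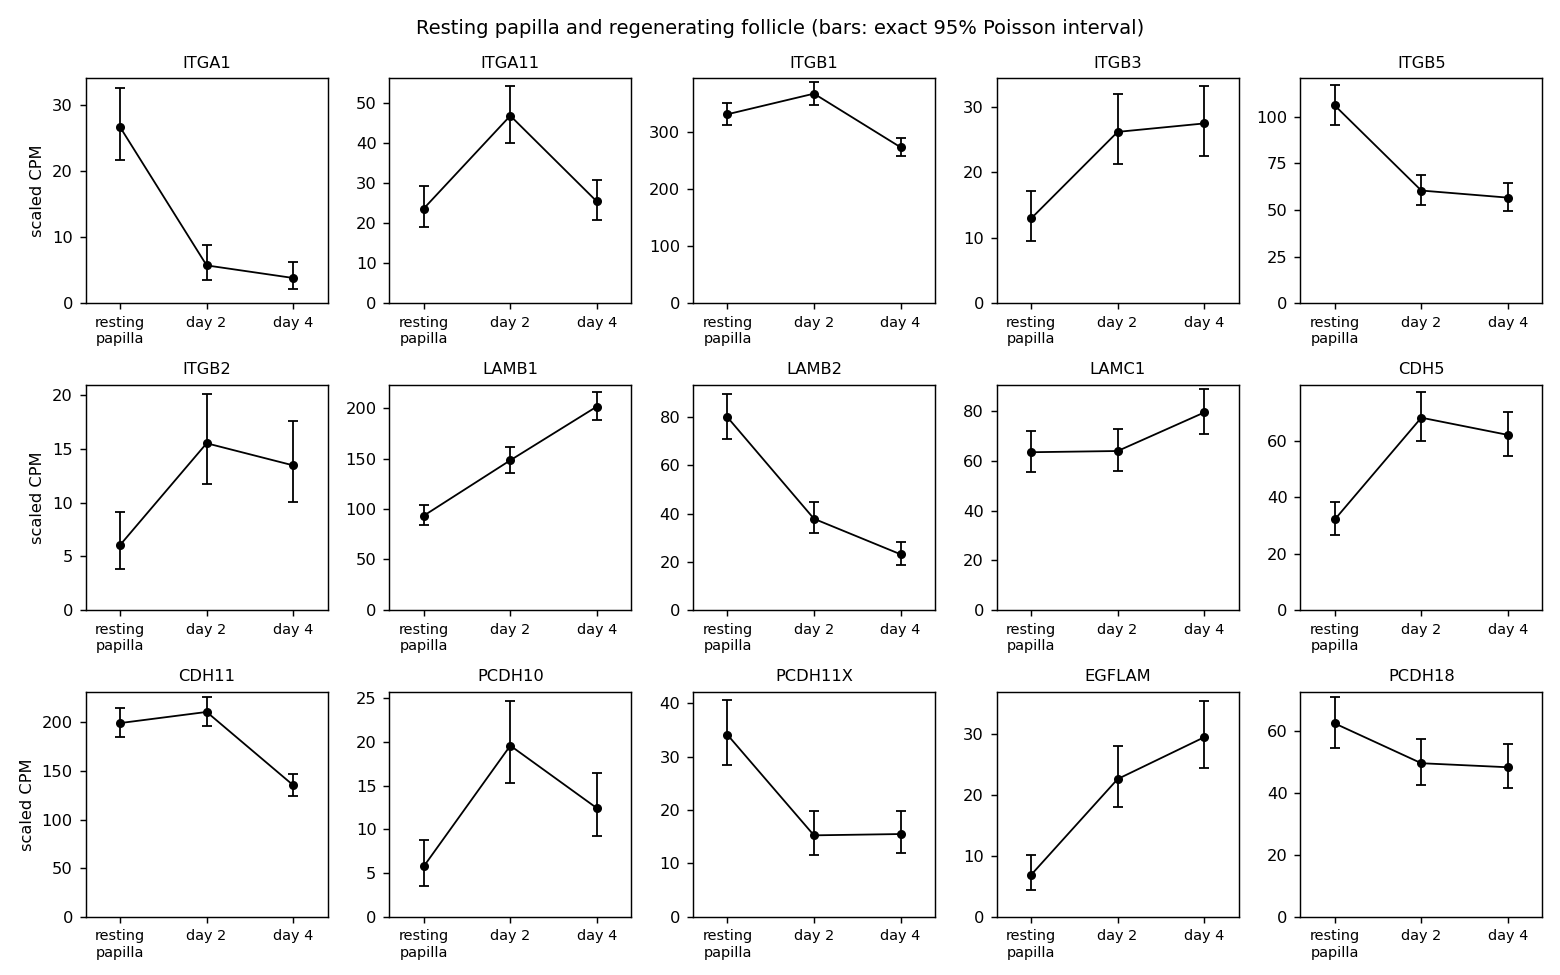
Levels in scaled CPM (vertical axes, each from 0) of 15 members in the resting papilla and in the follicle 2 and 4 days after the wound, with exact 95% Poisson intervals for counting error. ITGA1, LAMB2, PCDH11X and ITGB5 lie lower in both regenerating libraries, with LAMB2 at 80.0 in the resting papilla, 37.8 at day 2 and 23.1 at day 4, while LAMB1, ITGB3, CDH5 and EGFLAM lie higher.

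Between day 4 and day 2, 0 of 23 members differed by 2-fold in either direction on the log2(scaled CPM + 1) scale, where 3.77% of all records were higher and 3.84% lower, 7.61% in all. The median log2 ratio was -0.04 over the members and 0.03 over all records. The members with at least 100 counts that differed most were ITGA11, 1.84-fold (1.43 to 2.38) lower at day 4, LAMB2, 1.64-fold (1.25 to 2.16) lower, and CDH11, 1.56-fold (1.39 to 1.74) lower. LAMB1 was 1.36-fold (1.22 to 1.52) higher at day 4. With 1 library per day no value shows that the days were alike.

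Among the alpha chains, only ITGA1 and ITGA11 reached 20 counts in some library. Counts of different records cannot be compared, so these values do not show how much alpha chain stood beside the beta chains. Of the alpha V chain ITGAV, the partner of ITGB3, ITGB5, ITGB6 and ITGB8, there were 3 counts in the growth papilla, 12 in the pulp and 6 in the epithelium, and 4 in the resting papilla, 6 at day 2 and none listed at day 4. The laminin receptor chain ITGA6 had 3 counts in the growth papilla, in the resting papilla and at day 2, and none listed elsewhere. Its hemidesmosome partner ITGB4 had 5 in the growth papilla and 2 in the resting papilla and at day 2, with none listed elsewhere. These levels are too low to compare libraries. ITGA8 (at most 17 counts), ITGA9 (16), ITFG2 (15) and CDH2 (13) lay just under the threshold of 20, and CDH19 (24) and LOC420605 (27) just over it.

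Partners of these chains in the basement membrane, the matrix and the junction were looked at in lists. The background for their counts is the share of all records already given. It was 25.0% higher and 22.7% lower in the growth papilla against the epithelium, 26.7% and 20.4% in the pulp against the epithelium, and 14.7% and 19.1% in the growth papilla against the pulp. Against the resting papilla it was 9.35% higher and 7.97% lower in the growth papilla, 7.03% and 6.00% at day 2, and 8.23% and 6.90% at day 4. Between day 4 and day 2 it was 3.77% and 3.84%. With so few records in each list, counts of 1 to 3 are descriptions only. Of 14 basement membrane records found, 8 were counted in the growth papilla against the epithelium and 7 of them were higher, with a median log2 ratio of 3.50. All 8 counted in the pulp against the epithelium were higher, with a median of 4.56. The type IV collagen COL4A1 had 2097.6 scaled CPM in the growth papilla, 710.4 in the pulp and 34.3 in the epithelium, and 638.3 in the resting papilla, 374.0 at day 2 and 400.1 at day 4. Nidogen 1 (NID1), which links laminin to type IV collagen, had 80.9 scaled CPM in the growth papilla, 579.0 in the pulp and 5.51 in the epithelium, and 53.0 in the resting papilla, 74.8 at day 2 and 126.4 at day 4. In the growth papilla against the pulp 3 of 9 were higher and 5 lower (median log2 ratio -1.73): COL4A1 was 2.95-fold (2.84 to 3.07) higher and NID1 7.16-fold (6.33 to 8.12) lower. The papilla and the pulp thus differed in basement membrane partners in both directions. Of the laminin beta chains, LAMB2 was 16.1-fold (11.6 to 22.9) higher in the growth papilla than in the pulp. LAMB1 stayed within 2-fold, at a ratio of 0.692 (0.630 to 0.759). Against the resting papilla, 2 of 8 were higher in the growth papilla (median log2 ratio 0.88), 0 of 8 differed by 2-fold at day 2 (0.27), and 2 of 8 were higher and 1 lower at day 4 (0.48).

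Of 18 integrin-bound matrix records found, 12 of 14 were higher in the growth papilla than in the epithelium (median log2 ratio 4.33), and 12 of 14 were higher and 1 lower in the pulp than in the epithelium (4.70). Of 15 counted, 3 were higher and 7 lower in the growth papilla than in the pulp (median log2 ratio -0.95). Fibronectin (FN1), a ligand of integrins with beta 1 and beta 3, had 583.8 scaled CPM in the growth papilla and 160.3 in the pulp, 3.64-fold (3.37 to 3.94) higher in the papilla. The type VI collagen chain COL6A1 had 798.6 and 2965.8 scaled CPM in the growth papilla and the pulp, 3.71-fold (3.57 to 3.87) lower in the papilla. Osteopontin (SPP1), a ligand of integrins with beta 3 and beta 5, was not listed in any growth-phase library. It had 35 counts (9.62 scaled CPM) in the resting papilla, 273 (74.3) at day 2 and 93 (23.6) at day 4, and was 7.73-fold (5.42 to 11.3) higher at day 2 than in the resting papilla. EDIL3, a ligand of the same integrins, was 3.23-fold (2.46 to 4.28) lower at day 2. Over the list, 2 of 16 were higher and 3 lower in the growth papilla than in the resting papilla (median log2 ratio 0.41), 1 of 16 higher and 1 lower at day 2 (0.27), and 2 of 15 higher and 2 lower at day 4 (-0.17).

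Of 19 focal adhesion and integrin adaptor records found, 11 of 15 were higher and 1 lower in the growth papilla than in the epithelium (median log2 ratio 2.43), and 6 of 15 were higher and 1 lower than in the pulp (0.97). In the pulp against the epithelium 7 of 13 were higher and 0 lower (1.70). Tensin 1 (TNS1), which links integrins to actin, had 1103.1 scaled CPM in the growth papilla, 90.5 in the pulp and 3.84 in the epithelium, and 332.2 in the resting papilla, 307.6 at day 2 and 124.1 at day 4. Integrin-linked kinase (ILK) had 261.6, 283.8 and 54.7 scaled CPM in the growth papilla, pulp and epithelium, and 110.5, 93.1 and 142.2 in the resting papilla, at day 2 and at day 4. In the growth papilla against the resting papilla 7 of 15 adaptors were higher and 1 lower (median log2 ratio 0.95), TNS1 by 3.32-fold (3.11 to 3.55) and ILK by 2.37-fold (2.10 to 2.67). At day 2, 1 of 13 was higher and 1 lower (-0.04), and at day 4, 0 of 12 were higher and 3 lower (-0.34), with alpha-actinin 1 (ACTN1) 2.35-fold (2.16 to 2.55) lower at day 2 and 2.12-fold (1.96 to 2.29) lower at day 4. TNS1 and ACTN1 are also abundant in smooth muscle. Against the resting papilla, TNS1 was at a ratio of 0.926 (0.853 to 1.0) at day 2 and 0.374 (0.336 to 0.415) at day 4. The summed smooth muscle markers were 5908.3 scaled CPM in the resting papilla, 1717.2 at day 2 and 1913.2 at day 4. The part of smooth muscle cells in the adaptor levels was not tested.

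The junction partners did not differ as 1 group. Beta-catenin (CTNNB1), which joins cadherins to the cytoskeleton and also acts in Wnt signalling, had 352.8 scaled CPM in the growth papilla, 651.4 in the pulp and 1402.5 in the epithelium, and 506.7 in the resting papilla, 351.6 at day 2 and 552.4 at day 4. It was 3.98-fold (3.74 to 4.23) lower in the growth papilla than in the epithelium, whereas the catenin ARVCF was 41.4-fold (15.8 to 154.2) higher. Of the catenins and other adherens junction partners, 2 of 5 were higher and 1 lower in the growth papilla than in the epithelium (median log2 ratio 0.43), 2 of 7 higher and 1 lower than in the pulp (-0.34), and 4 of 7 higher and 2 lower in the pulp than in the epithelium (2.10). In the growth papilla against the resting papilla 2 of 5 were higher (0.99), and none of 5 differed by 2-fold at day 2 (0.18) or day 4 (-0.04). Of the desmosome and hemidesmosome partners, 3 of 12 were higher and 7 lower in the growth papilla than in the epithelium (-2.91), and 2 of 11 higher and 8 lower in the pulp than in the epithelium (-3.30). Against the pulp 5 of 7 were higher in the growth papilla and 0 lower (1.31), and 5 of 9 were lower than in the resting papilla and 0 higher (-1.52). The cytolinker envoplakin (EVPL) had 5.30 scaled CPM in the growth papilla, against 99.2 in the resting papilla, and was 18.7-fold (11.7 to 32.0) lower there. At day 2, 2 of 11 desmosome partners were higher and 2 lower (0.05), and at day 4, 3 of 10 were higher and 1 lower (-0.13), with the desmosomal protein PERP 2.41-fold (2.08 to 2.79) higher at day 2 and 3.28-fold (2.86 to 3.78) higher at day 4.

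Of the transcription factors known to repress E-cadherin, ZEB1, ZEB2 and TWIST2 were low in the epithelium. SNAI2 was near its resting papilla and day 2 levels there. TCF3 was not lowest there, with 21.8 scaled CPM in the epithelium, 30.0 in the growth papilla and 22.2 in the pulp. It had 17.3 in the resting papilla, 16.3 at day 2 and 24.9 at day 4. ZEB2 had 517.6 scaled CPM in the growth papilla, 810.1 in the pulp and 22.1 in the epithelium, and 650.7 in the resting papilla, 564.8 at day 2 and 437.2 at day 4. SNAI2 had 57.7, 372.2 and 30.4 scaled CPM in the growth papilla, pulp and epithelium, and 33.8, 35.1 and 108.2 in the resting papilla, at day 2 and at day 4. ZEB2 was highest in the pulp and lowest in the epithelium, as was CDH11, and SNAI2 stood out in the pulp. Of the 5 repressors counted, 3 were higher and 0 lower in the growth papilla than in the epithelium (median log2 ratio 4.18), 0 higher and 1 lower than in the pulp (-0.65), and 4 higher and 0 lower in the pulp than in the epithelium (4.25). None differed by 2-fold between the growth and the resting papilla (0.75), 1 was lower at day 2 (-0.08), and SNAI2 was the 1 higher at day 4 (0.50), by 3.20-fold (2.61 to 3.94). Between day 4 and day 2, no basement membrane record of 7 and no adherens junction partner of 5 differed by 2-fold. Of the other lists, 2 of 16 matrix records and 1 of 13 adaptors were lower at day 4, and 1 of 11 desmosome partners and 2 of 5 repressors were higher. SNAI2 was 3.08-fold (2.52 to 3.78) higher and SPP1 3.15-fold (2.48 to 4.03) lower at day 4 than at day 2.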

How the data were processed

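Total RNA of the 6 feather follicle samples was sequenced with standard Illumina protocols, per the labels. Each table's expression column holds whole-number counts per RefSeq transcript record, deposited by the authors with no value under 2. A further column headed TPM was deposited in RPM (counts scaled to a library total, with no division by length), and it was used only to recover that total, from records with at least 500 counts. Per library, 40.0% to 44.5% of that total was in listed records. The only genome build named is mm10, a mouse build, per the submitters' processing notes, whereas the identifiers belong to chicken transcripts. For aligner, counter and strandedness, nothing is given in the sources used here. Of 10964 records, 4822 took their symbol from the tables, 4980 from their gene identifier and 11 from a match of their accession to RefSeq genes, which left 1151 unnamed. No genome sequence was used, so no sequence is shown.

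TMM (trimmed mean of M values) scaling factors were computed over the 6 libraries with edgeR 4.0.16 in R 4.3.3. Log2 ratios used scaled CPM plus a pseudocount of 1. Folds of single records divide scaled counts directly, and their 95% intervals are exact and conditional on the sum of both counts (Clopper-Pearson); shares within a library have exact binomial intervals. With 1 library per group no p-value was computed. The procedure was tested on simulated data. The simulated libraries had counting error alone and shared 1 mean profile apart from a set of altered records. They therefore do not show how the scaling behaves between tissues of different composition. Other computation used Python 3.11.15 with numpy 2.4.6, scipy 1.17.1, pandas 2.3.3 and matplotlib 3.10.9.

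The members, the marker and partner lists and the rules were chosen with earlier results of these data known. By rule, folds were planned per comparison for up to 4 members with the highest and 4 with the lowest log2 ratio. These members needed at least 100 counts in the higher library. Folds of CDH1, CDH2, ITGB1, ITGA6 and LAMC1 in every comparison, and of up to 4 genes of each partner list, were also planned. CDH2 and ITGA6 stayed under 20 counts in every library and have no fold. Of the rest, not every planned fold is given here. Other folds, and the pairs of records set against each other as shares, were chosen after their values were seen. Alternatives were median-of-ratios, upper-quartile and no scaling, TMM leaving out the 100 records with most counts, a pseudocount of 0.1 or 5, omission of the low-count filter, a 100-count minimum and a 2-fold rule at the nearer interval bound. Chosen after seeing the data were TMM over the 4 tables of 1 layout, the members without ITFG1 and EGFLAM, and the members with LAMA3 and CDH1. No library was left out, since each group had 1. Of the members, 1 is counted in the totals and not otherwise reported here.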

Additional observations from a re-analysis of the deposited data

How the results depend on the processing

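Of 162 recounts of the members that differed, over 14 counts and 12 settings, 134 were within 1.5 times the reported count and 28 were not. Members lower in the growth papilla than in the epithelium were 2 in place of 1 with upper-quartile scaling, with a pseudocount of 0.1 and with LAMA3 and CDH1 added. With no filter on low counts, 9 members in place of 5 were higher in the growth papilla than in the pulp, 5 in place of 3 lower in the pulp than in the epithelium, and 2 in place of 0 higher at day 4 than at day 2. At a minimum of 100 counts, 1 was lower in the pulp than in the epithelium, 1 higher and 0 lower in the growth papilla than in the resting papilla, and 1 in place of 4 higher at day 2 than in the resting papilla. At the nearer interval bound, 2 in place of 4 were lower in the growth papilla than in the pulp, 1 higher and 0 lower than in the resting papilla, 2 higher and 1 lower at day 2, and 1 higher at day 4. With a pseudocount of 5, 1 was higher and 0 lower in the growth papilla than in the resting papilla, 2 higher and 1 lower at day 2 and 2 higher at day 4; with 0.1, 2 were lower in the growth papilla than in the resting papilla and 1 lower at day 4 than at day 2. Members higher in the growth papilla than in the resting papilla were 4 in place of 2 with median-of-ratios scaling, 1 with no scaling factor and 1 without ITFG1 and EGFLAM. Lower ones were 2 in place of 1 with no scaling factor and 3 with LAMA3 and CDH1. The cause was not tested where the setting does not itself remove or add records. Of 276 recomputed ratios of single records, 265 stayed within their counting interval and 11, all without a scaling factor, did not; no called ratio changed direction. Leaving out the scaling factor moved the median log2 ratio of all records to 0.45 from -0.05 in the growth papilla against the epithelium and to 0.61 from 0.08 in the pulp against the epithelium. The share of called records that were higher was then 72.2% in place of 52.4% and 77.5% in place of 56.7%. It was 41.3% in place of 54.0% in the growth papilla against the resting papilla and 64.5% in place of 54.4% at day 4 against the resting papilla. No paired analysis was possible because each group has 1 library. Members under 100 counts in every library, 9 of the 27, have the widest intervals.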
